A study of Mus musculus with 24 samples.

Results

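The 9 astrocyte genes Gfap, Vim, Aqp4, Gja1, Slc1a2, Slc1a3, Glul, Aldh1l1 and Aldoc were followed in the hippocampus (HIP) and entorhinal cortex (EC) of Ts65Dn mice and their wt littermates. They were chosen by name as genes known to mark astrocytes, and each symbol matched a single gene among the 55385 genes counted. RNA-Seq of both regions in 12 male mice aged 5 to 6 months gave 24 libraries, with 6 mice per genotype and 1 library per region and mouse. Ts65Dn mice carry an extra minichromosome, which adds a copy of a distal part of Mmu16 and of a centromeric part of Mmu17, and wt littermates lack it. Mice of both genotypes were bred on the mixed F1B6C3B background. As a model of Down syndrome, Ts65Dn also carries Mmu17 genes that are not homologous to human chromosome 21.

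Astrocytes are the glial cells that clear glutamate from around synapses, turn it into glutamine, and wrap blood vessels with endfeet that carry water channels. They are joined to each other through gap junctions, and their intermediate filaments are known to increase when they react to injury. Hippocampal astrocytes are known for stronger labeling of the filament protein GFAP than those of the neocortex.

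By role, the genes fall into 4 groups. Gfap and Vim encode the intermediate filament proteins GFAP and vimentin. Aqp4 encodes the water channel of endfeet, and Gja1 encodes connexin 43, the main gap junction protein of astrocytes. Slc1a2 and Slc1a3 encode the glutamate transporters GLT-1 and GLAST, and Glul encodes glutamine synthetase, which makes glutamine from glutamate. Aldh1l1 encodes a folate enzyme and Aldoc the aldolase of brain glycolysis, and both are used as general astrocyte markers. None of the 9 genes lies on Mmu16 or Mmu17. On GRCm38, Gfap lies at chr11:102887336-102900912 on the minus strand, Slc1a3 at chr15:8634124-8710764 on the minus strand, Slc1a2 at chr2:102658659-102790784 on the plus strand, and Gja1 at chr10:56377330-56402513 on the plus strand. Vim is also on chromosome 2 and Aldoc on chromosome 11, while Glul is on chromosome 1, Aldh1l1 on 6 and Aqp4 on 18.

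The promoter windows of 3 genes are shown, for the gene with the greatest difference between regions (Gfap) and for the genes with the lowest p-value between genotypes in the HIP (Slc1a3) and in the EC (Gja1). Each is the 250 bases before the RefSeq transcription start on GRCm38.p6, printed 5′ to 3′ on the gene's own strand. The windows are chr11:102897201-102897450 (minus strand), chr15:8710808-8711057 (minus strand) and chr10:56377050-56377299 (plus strand), and the Gfap window lies inside the wider gene interval given above. Capitals mark matches, on either strand, to 5 motifs: the TATA box TATAAA, the CCAAT box CCAAT, the GC box GGGCGG, the AP-1 motif TGANTCA and the STAT motif TTCNNNGAA.
Gfap: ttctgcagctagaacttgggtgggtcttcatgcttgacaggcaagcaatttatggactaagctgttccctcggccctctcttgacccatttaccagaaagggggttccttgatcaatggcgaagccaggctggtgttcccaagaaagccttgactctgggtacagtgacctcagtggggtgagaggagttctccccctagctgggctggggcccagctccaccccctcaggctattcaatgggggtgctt
Slc1a3: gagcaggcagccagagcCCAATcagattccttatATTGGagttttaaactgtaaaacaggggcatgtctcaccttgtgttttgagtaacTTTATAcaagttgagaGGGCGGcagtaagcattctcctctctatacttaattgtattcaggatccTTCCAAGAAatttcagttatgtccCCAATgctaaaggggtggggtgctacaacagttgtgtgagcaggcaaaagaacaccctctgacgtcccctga
Gja1: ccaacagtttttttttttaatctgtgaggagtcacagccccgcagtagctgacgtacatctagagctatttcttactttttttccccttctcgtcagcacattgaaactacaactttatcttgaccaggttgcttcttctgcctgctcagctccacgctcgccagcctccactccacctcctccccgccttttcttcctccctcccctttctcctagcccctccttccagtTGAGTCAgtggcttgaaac
The Gfap window held no match to any of the 5 motifs. The Slc1a3 window held 3 CCAAT boxes, a GC box 145 to 140 bases before the start, a STAT motif TTCCAAGAA 96 to 88 bases before it, and TATAAA on the opposite strand (TTTATA) 161 to 156 bases before it. The Gja1 window held an AP-1 motif, TGAGTCA, 19 to 13 bases before the start. No match overlapped another. Among 32851 RefSeq windows of the same length, the TATA box was present in 12.4%, CCAAT in 33.8%, the GC box in 32.7%, the AP-1 motif in 6.75% and the STAT motif in 7.02%. Matches to letters describe the windows and are not measured binding.

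Reads were counted per gene, and total counts ranged from 23128589 to 40476492 per library. Levels are given as CPM, which are counts per gene scaled to library size, with TMM factors over the 24 libraries. Over these libraries, the 9 genes had from 28110 counts (Vim) to 2630251 counts (Slc1a2), so counting error was small beside the spread between mice. In bulk tissue, fewer astrocytes and less RNA per astrocyte cannot be told apart. The sources differ on how RNA was enriched: the methods give a total RNA kit that depletes ribosomal RNA as well as polyA RNA, and the labels give an mRNA kit with poly-T beads. Antisense and other genes overlapping the 9 genes had at most 0.437% of their counts, and the Glul pseudogene Glns-ps1 had 3.51% as many counts as Glul, which could share reads with it. Region labels were checked with Prox1, a gene of dentate granule cells, and Zbtb20, a hippocampal transcription factor: Prox1 lay between 106 and 176 CPM in the 12 HIP libraries and between 10.7 and 14.6 CPM in the 12 EC libraries, and Zbtb20 between 253 and 455 CPM and between 53 and 69.1 CPM.

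The mouse labelled Ts65Dn replicate 3 did not match its genotype label. Over 30 triplicated genes, the other 5 Ts65Dn libraries of each region had a median fold of 1.48 to 1.53 over the wt mean. The HIP library labelled Ts65Dn replicate 3 had 1.01, inside the range of wt HIP libraries (0.989 to 1.01), and its EC library had 0.961, just below that of wt EC libraries (0.992 to 1.01). The label was kept, and the tests of the 9 genes that rest on Ts65Dn mice are also given without this mouse.

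To compare genes, CPM were divided by the kilobases of all annotated exons of a gene, which may exceed the length of its main transcript. By this measure Glul was the most abundant of the 9 genes in all 4 groups, and the order depends on the lengths used. By CPM alone, Slc1a2 was above Glul, with means of 3481 and 1458 CPM in the wt HIP. In the wt HIP, Glul had a mean of 439 CPM per kilobase. Slc1a2 (265) and Aldoc (212) followed, and the libraries of these neighbors overlapped. Slc1a3 (93.1) and Gfap (88.8) came next and overlapped. Aqp4 (36.6) and Gja1 (29.4) also overlapped, as did Aldh1l1 (10.8) and Vim (9.04), the least abundant. In the wt EC the order was Glul (481 CPM per kilobase), Slc1a2 (334), Aldoc (293), Slc1a3 (107), Aqp4 (28.4), Gja1 (24.7), Gfap (19.6), Aldh1l1 (16.6) and Vim (5.96). Gfap was the fifth in the wt HIP and the seventh in the wt EC, where its libraries overlapped those of both its neighbors, Gja1 and Aldh1l1. In Ts65Dn, neighbors that overlapped in wt changed places: Gfap (90.0) stood above Slc1a3 (81.6) and Vim (10.99) above Aldh1l1 (10.3) in the HIP, and Aldoc (294) above Slc1a2 (288) in the EC, all with overlapping libraries.

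**Figure D1:**
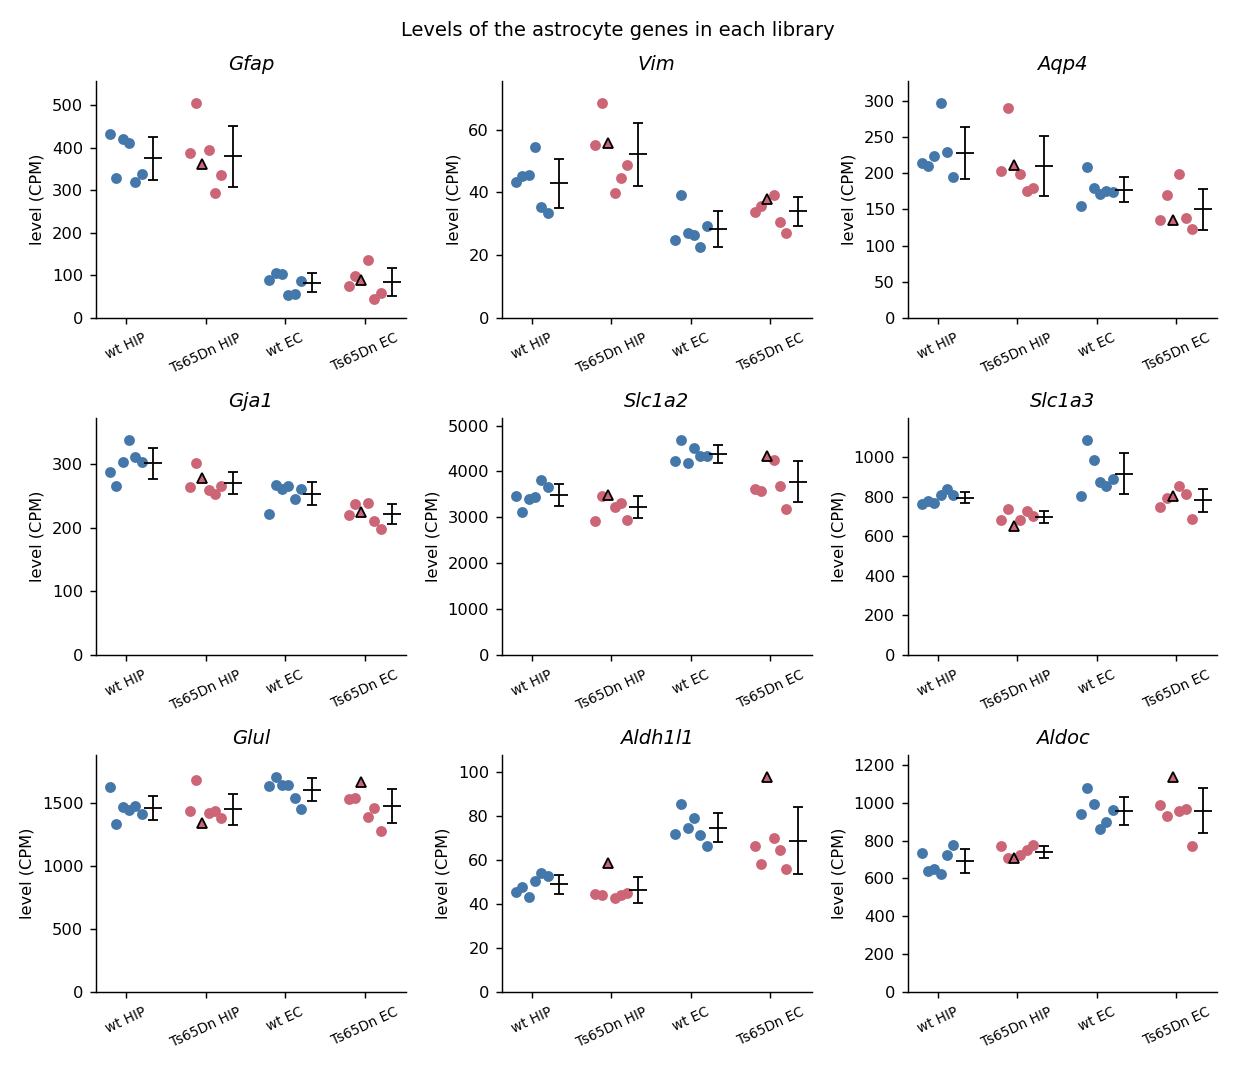
Level of each of the 9 astrocyte genes in the 24 libraries (CPM, linear axes from 0), by group, with a point for each library, a triangle for the mouse labelled Ts65Dn replicate 3, and bars for the mean and SD of 6 libraries. Gfap lies far higher in the HIP than in the EC in both genotypes, whereas the wt and Ts65Dn points of a region overlap for every gene except Slc1a3 in the HIP.

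The comparison of HIP with EC asked how the genes differ between the regions of the same mice. Gfap was 4.62 times as high in the HIP of wt mice. Vim, Aqp4 and Gja1 were higher by smaller folds, and Slc1a2, Slc1a3, Aldh1l1 and Aldoc were lower. In wt mice, 8 of 9 genes passed the test (4 higher and 4 lower in the HIP), with Glul not called, and Ts65Dn mice gave the same counts. A gene was called at a Benjamini-Hochberg adjusted p under 0.05 from edgeR's quasi-likelihood test, with a term for each mouse. The background was high. Of the 18109 genes tested, 58.6% were called in wt (30.3% higher and 28.3% lower in the HIP) and 56.5% in Ts65Dn (29.5% higher and 27.0% lower). Differing between these regions was therefore common among genes in general. The share of genes whose HIP and EC libraries did not overlap was not counted, so non-overlap of regions below only describes levels.

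Gfap ranged in the wt HIP from 319 to 431 CPM with a median of 375, and in the wt EC from 54.6 to 105 CPM with a median of 88.7. In Ts65Dn it ranged from 293 to 506 CPM in the HIP (median 374) and from 44.4 to 137 CPM in the EC (median 82.3). Every HIP library lay above every EC library. The fold of HIP over EC was 4.62 in wt (95% interval 3.71 to 5.76, log2 2.21, SE 0.15, adjusted p = 6.07e-09) and 4.78 in Ts65Dn (95% interval 3.83 to 5.96, adjusted p = 5.57e-09). Within single mice the ratio ran from 3.13 to 7.51 in wt and from 2.89 to 6.59 in Ts65Dn. Only 2.91% of genes tested in wt, and 2.32% in Ts65Dn, had a larger absolute log2 change than Gfap.

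Vim, the other filament gene, moved the same way as Gfap by a smaller fold. It ranged in the wt HIP from 33.3 to 54.6 CPM with a median of 44.3, and in the wt EC from 22.7 to 39.3 CPM with a median of 26.7, and the regions overlapped between mice. The HIP was higher by 0.60 in wt on the log2 scale (SE 0.12, adjusted p = 0.000365) and by 0.62 in Ts65Dn (SE 0.12, adjusted p = 0.000295). Vim was higher in the HIP of all 12 mice, with ratios of 1.13 to 2.06 in wt and 1.01 to 1.92 in Ts65Dn. Vim is also made by ependymal, choroid plexus, endothelial and meningeal cells. Of these lists, ependymal markers had 6 of 6 tested genes higher in the wt HIP, choroid plexus markers 7 of 7, meningeal markers 1 higher and 1 lower of 7, and endothelial and mural markers 7 of 9 lower. Their part in the Vim difference was not tested.

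The endfoot and gap junction genes were also higher in the HIP. Aqp4 ranged in the wt HIP from 194 to 298 CPM with a median of 219, and in the wt EC from 155 to 208 CPM with a median of 175, so the groups overlapped, yet within each of the 12 mice the HIP was higher. The log2 difference was 0.35 in wt (SE 0.09, adjusted p = 0.00392) and 0.49 in Ts65Dn (SE 0.09, adjusted p = 0.000315). Gja1 ranged in the wt HIP from 265 to 338 CPM with a median of 303, and in the wt EC from 222 to 268 CPM with a median of 260.2. Its log2 difference was 0.24 in wt (SE 0.05, adjusted p = 0.000482) and 0.30 in Ts65Dn (SE 0.05, adjusted p = 9.2e-05), and 11 of 12 mice had the higher level in the HIP. With the trends of fold change on GC content and on length removed together, Aqp4 in wt fell to 0.22 (adjusted p = 0.0567) and Gja1 to 0.11 in wt (adjusted p = 0.185) and 0.15 in Ts65Dn (adjusted p = 0.0654). That removal also lowered genes in general, by a median of -0.078 in wt and -0.066 in Ts65Dn, which was less than each of these falls.

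The glutamate transporters were lower in the HIP. Slc1a2 ranged in the wt HIP from 3114 to 3806 CPM with a median of 3452, and in the wt EC from 4193 to 4693 CPM with a median of 4337, with no overlap in wt. It was lower in the HIP of all 12 mice, by -0.34 on the log2 scale in wt (SE 0.06, adjusted p = 0.000122) and -0.21 in Ts65Dn (SE 0.06, adjusted p = 0.00487). Slc1a3 ranged in the wt HIP from 764 to 839.8 CPM with a median of 792, and in the wt EC from 804 to 1087 CPM with a median of 879.8. Its log2 difference was -0.20 in wt (SE 0.06, adjusted p = 0.00878) and -0.15 in Ts65Dn (SE 0.06, adjusted p = 0.0357). The Ts65Dn value was close to the threshold and lost the call without the mouse of Ts65Dn replicate 1, 3, 4 or 5, with adjusted p from 0.0566 to 0.108. Without the doubted Ts65Dn replicate 3 it was -0.12 (adjusted p = 0.108), which left 7 of 9 genes called in Ts65Dn.

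Glul differed least between the regions. It ranged in the wt HIP from 1331 to 1622 CPM with a median of 1454, and in the wt EC from 1448 to 1704 CPM with a median of 1635. The log2 difference was -0.14 in wt (SE 0.06, adjusted p = 0.0601, lower in the HIP of 6 of 6 mice) and -0.02 in Ts65Dn (SE 0.06, adjusted p = 0.821, lower in 3 of 6 mice). The wt value crossed the threshold with DESeq2 (adjusted p = 0.0295) and in 4 other settings, which include the removal of GC content and length (-0.23, adjusted p = 0.00792). In wt, that removal shifted all genes tested by a median of -0.078.

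Both metabolic markers were lower in the HIP. Aldh1l1 ranged in the wt HIP from 43.2 to 54.2 CPM with a median of 49.1, and in the wt EC from 66.2 to 85.5 CPM with a median of 73.2, with no overlap. It was lower in the HIP of all 12 mice, with log2 differences of -0.61 in wt (SE 0.07, adjusted p = 1.55e-06) and -0.54 in Ts65Dn (SE 0.07, adjusted p = 6.6e-06). Aldoc ranged in the wt HIP from 624.8 to 778 CPM with a median of 687, and in the wt EC from 861 to 1079.6 CPM with a median of 951, again with no overlap in wt. Its log2 difference was -0.47 in wt (SE 0.07, adjusted p = 5.16e-05) and -0.36 in Ts65Dn (SE 0.07, adjusted p = 0.000663). With the doubted Ts65Dn replicate 3 left out, the log2 differences between the regions in Ts65Dn were 2.31 for Gfap, 0.63 for Vim, 0.47 for Aqp4, 0.30 for Gja1, -0.19 for Slc1a2, -0.50 for Aldh1l1 and -0.29 for Aldoc, all called (adjusted p from 3.58e-08 to 0.0156), and 0.04 for Glul (adjusted p = 0.490). Over all genes tested, 38.7% had a single direction in all 12 mice, against 5 of the 9 astrocyte genes (Gfap, Vim and Aqp4 higher, Slc1a2 and Aldh1l1 lower).

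**Figure D2:**
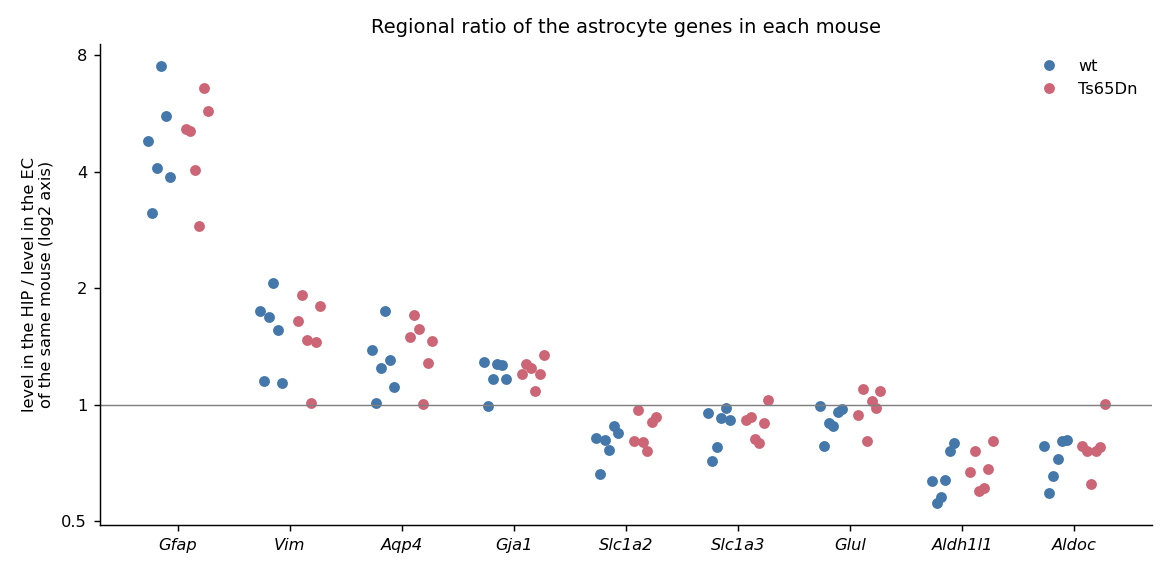
Ratio of the level in the HIP over that in the EC within each of the 12 mice for the 9 genes (log2 axis), with wt and Ts65Dn mice in different colors and a line at equal levels. Gfap runs from 2.89 to 7.51, Vim and Aqp4 lie above 1 in every mouse, and Slc1a2 and Aldh1l1 lie below 1 in every mouse.

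A ratio of a pair of genes within a library does not depend on scaling between libraries. Gfap over Aldh1l1 averaged 7.61 in the wt HIP (5.88 to 9.74) and 1.07 in the wt EC (0.690 to 1.38), a 7.09-fold difference. In Ts65Dn it averaged 8.09 in the HIP and 1.16 in the EC, a 6.97-fold difference. All 6 mice of each genotype had the higher ratio in the HIP (two-sided exact sign-flip permutation test, p = 0.03125, the smallest that 6 mice allow, adjusted p = 0.125 over 8 tests). The ratio of the transporters, Slc1a2 over Slc1a3, was 4.38 in the wt HIP and 4.81 in the wt EC (exact permutation test, p = 0.0625, adjusted p = 0.167), and 4.62 and 4.82 in Ts65Dn (exact permutation test, p = 0.1875, adjusted p = 0.350). Neither ratio differed between genotypes beyond the spread between mice in either region (exact permutation tests, p from 0.219 to 0.968). These genotype differences on the log2 scale without Ts65Dn replicate 3 were 0.17 for the HIP and 0.18 for the EC in Gfap over Aldh1l1, and 0.04 for the HIP and -0.03 for the EC in Slc1a2 over Slc1a3 (exact permutation tests, adjusted p from 0.577 to 0.641). The Ts65Dn region differences of the ratios were then 2.81 for Gfap over Aldh1l1 and -0.07 for Slc1a2 over Slc1a3.

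Other cell types also differed between the regions, and their markers are given beside these results. In wt, 9 of 9 oligodendrocyte markers were higher in the HIP, with a median log2 difference of 2.08 and summed levels of 6967 to 9574 CPM in the HIP against 1453 to 2802 CPM in the EC. All 7 choroid plexus markers were higher, with sums of 88.6 to 4886 CPM in the wt HIP and 12.0 to 49.7 CPM in the wt EC. Microglia markers were lower in 8 of 8 cases, and neuron markers lower in 8 of 12, with sums of 10604 to 11989 CPM in the wt HIP and 14010 to 15379 CPM in the wt EC. No marker of these lists was at 0 throughout a group. Their part in the differences of the astrocyte genes was not tested.

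The other genes of astrocyte pathways went both ways between the regions. Of 33 other astrocyte genes, 8 were higher and 10 lower in the wt HIP, and 11 were higher and 9 lower in Ts65Dn (11 and 7 without Ts65Dn replicate 3). Chrdl1, a secreted antagonist of bone morphogenetic proteins, was lower by -2.27 in wt and -2.22 in Ts65Dn on the log2 scale, while the neurotensin receptor gene Ntsr2 was higher by 0.47 and 0.45. Of 16 regulators, 9 were higher and 2 lower in wt and 12 and 2 in Ts65Dn (11 and 2 without Ts65Dn replicate 3), with Zbtb20 higher by 2.40 and 2.45 and the Notch target Hes5 lower by -1.30 and -1.51. Zbtb20 is also a gene of hippocampal neurons.

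Most called genes of metabolism and transport were lower in the HIP of wt mice, to which the next values belong. Of 16 glycolysis and glycogen genes, 2 were higher and 10 lower in the wt HIP, with the glycogen phosphorylase gene Pygm lower by -0.73, the lactate dehydrogenase gene Ldha by -0.72, and Pfkfb3, whose product drives glycolysis, higher by 0.81. Of 14 genes of glutamate and glutamine handling, 3 were higher and 9 lower, with the cystine-glutamate exchanger gene Slc7a11 lower by -0.61 and the neuronal transporter gene Slc1a1 higher by 0.47. Endfoot and gap junction partners had 5 higher and 2 lower of 13, led by the syntrophin gene Sntb1 at 1.70 and the utrophin gene Utrn at -0.77. Intermediate filament partners had 1 higher and 2 lower of 5, with Lmna at -0.62 and Plec at -0.46. Of 32 reactive astrocyte genes tested, 11 were higher and 10 lower, with Cd109 at 3.18 and the complement gene C3 at 3.13 against S100a10 at -1.52. Counts higher and lower in the Ts65Dn HIP were 4 and 8 for glycolysis and glycogen, and 3 and 6 for glutamate and glutamine handling. They were 5 and 2 for endfoot partners, 0 and 2 for filament partners, and 12 and 6 for reactive genes. Without Ts65Dn replicate 3, glutamate handling had 3 and 5 and reactive genes 10 and 5, and the others were unchanged.

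The comparison of Ts65Dn with wt asked whether the trisomy changes these genes in either region. With edgeR, 0 of the 9 genes passed the test in the HIP and 0 in the EC, where 1.04% and 2.50% of all genes tested were called. At an unadjusted p under 0.05, 2 of 9 passed in the HIP (Slc1a3 and Gja1) and 5 of 9 in the EC (Gja1, Slc1a3, Slc1a2, Aqp4 and Glul, all with lower means in Ts65Dn), against 14.8% and 19.0% of all genes. DESeq2, the alternative count test, called Slc1a3 in the HIP (adjusted p = 0.00017), lower in Ts65Dn. For the EC, DESeq2 called Gja1 (adjusted p = 0.0117), Slc1a3 (adjusted p = 0.0239) and Slc1a2 (adjusted p = 0.0327), also lower in Ts65Dn. Over all genes, DESeq2 made 662 calls for the HIP, where edgeR made 181, and 1141 for the EC, where edgeR made 426. The median log2 difference of the 9 genes was -0.07 for the HIP and -0.14 for the EC, beside a median of 0.00 over all genes tested in each region. The counts of Ts65Dn libraries beyond every wt library or beyond the wt median that follow include the doubted Ts65Dn replicate 3. Shares over all genes were not counted for them.

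Slc1a3 in the HIP was the only one of the 9 genes whose genotypes did not overlap in a region. It ranged in the wt HIP from 764 to 839.8 CPM with a median of 792, and in the Ts65Dn HIP from 654 to 736 CPM with a median of 692. Among all genes tested in the HIP, 1.07% lay wholly lower in Ts65Dn without overlap. The fold was 0.877 (95% interval 0.821 to 0.936, log2 -0.19, SE 0.04), and edgeR's adjusted p was 0.0575, just over the threshold. The lowest value, 654 CPM, came from the library labelled Ts65Dn replicate 3, and without that mouse the log2 difference was -0.17 (edgeR adjusted p = 0.0561). In the EC, Slc1a3 ranged from 686 to 852 CPM in Ts65Dn (median 796) against 804 to 1087 CPM in wt, with 4 of 6 Ts65Dn libraries below every wt library. There the log2 difference was -0.24 (SE 0.07, edgeR adjusted p = 0.0825), and -0.25 without the doubted mouse (edgeR adjusted p = 0.0878).

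Slc1a2, the more abundant transporter gene, lay in the same direction. In the HIP it ranged from 2916 to 3479 CPM in Ts65Dn (median 3274) against 3114 to 3806 CPM in wt, and the log2 difference was -0.11 (SE 0.07, edgeR adjusted p = 0.484), and -0.13 without Ts65Dn replicate 3 (edgeR adjusted p = 0.315). In the EC it ranged from 3178 to 4342 CPM in Ts65Dn (median 3652) against 4193 to 4693 CPM in wt, with 4 of 6 Ts65Dn libraries below every wt library. The log2 difference in the EC was -0.23 (SE 0.07, edgeR adjusted p = 0.0984). Without Ts65Dn replicate 3 it was -0.28 and was called (edgeR adjusted p = 0.0409), so this mouse decided the call. Glul ranged from 1335 to 1677 CPM in the Ts65Dn HIP (median 1424) and from 1276 to 1661 CPM in the Ts65Dn EC (median 1493), and overlapped wt in both regions, with log2 differences of -0.01 in the HIP (edgeR adjusted p = 0.947) and -0.14 in the EC (edgeR adjusted p = 0.252). Its differences without Ts65Dn replicate 3 were 0.01 and -0.17 (edgeR adjusted p = 0.967 and 0.112).

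Gja1 lay below the wt median in all 6 Ts65Dn libraries of each region. In the HIP it ranged from 253 to 301 CPM in Ts65Dn (median 264) against 265 to 338 CPM in wt, with a log2 difference of -0.16 (SE 0.06, edgeR adjusted p = 0.233). In the EC it ranged from 197 to 238 CPM in Ts65Dn (median 222) against 222 to 268 CPM in wt, with a log2 difference of -0.22 (SE 0.06, edgeR adjusted p = 0.0595). Leaving out wt replicate 1 brought the EC value past the threshold (-0.25, edgeR adjusted p = 0.0386). The Gja1 differences without Ts65Dn replicate 3 were -0.17 in the HIP (edgeR adjusted p = 0.197) and -0.22 in the EC (edgeR adjusted p = 0.0681). Aqp4, the endfoot water channel gene, ranged from 123 to 199 CPM in the Ts65Dn EC (median 137) against 155 to 208 CPM in wt, with 4 of 6 Ts65Dn libraries below every wt library. In the HIP it ranged from 176 to 291 CPM in Ts65Dn (median 202) and overlapped wt. The log2 difference of Aqp4 was -0.26 in the EC (SE 0.10, edgeR adjusted p = 0.195) and -0.12 in the HIP (SE 0.12, edgeR adjusted p = 0.704), and without Ts65Dn replicate 3 it was -0.23 and -0.12 (edgeR adjusted p = 0.272 and 0.689).

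The filament genes had genotype differences at or above 0 with all mice. Gfap had a log2 difference of 0.02 in the HIP (SE 0.12, edgeR adjusted p = 0.964, 95% interval of the fold 0.847 to 1.21) and of 0.00 in the EC (SE 0.23, edgeR adjusted p = 0.998, 95% interval of the fold 0.709 to 1.41), so folds inside these intervals could not be told from 1. Leaving out Ts65Dn replicate 3, the Gfap differences were 0.03 and -0.02 (edgeR adjusted p = 0.935 and 0.978). Vim lay higher, from 39.8 to 68.7 CPM in the Ts65Dn HIP (median 51.9) and from 27.0 to 39.3 CPM in the Ts65Dn EC (median 34.7), where all 6 libraries were above the wt median. Its log2 differences of 0.28 in the HIP (SE 0.14, edgeR adjusted p = 0.356) and 0.25 in the EC (SE 0.12, edgeR adjusted p = 0.274) did not pass, nor did the values without Ts65Dn replicate 3 (0.26, edgeR adjusted p = 0.393, and 0.22, edgeR adjusted p = 0.382). Beside Vim, the 7 meningeal fibroblast markers all had positive log2 differences in the HIP (median 0.67, 0 called by edgeR, 2 at an unadjusted p under 0.05 and 1 called by DESeq2), with sums of 37.1 to 88.7 CPM in wt and 39.9 to 165 CPM in Ts65Dn. In the EC their median was -0.09. Choroid plexus markers had 7 of 7 positive differences in the HIP (median 0.27), with sums of 88.6 to 4886 CPM in wt and 51.9 to 5110 CPM in Ts65Dn, and 1 of 4 in the EC (median -0.28). Endothelial and mural markers were positive in 8 of 9 cases in the HIP (median 0.07) and 2 of 9 in the EC (median -0.09). Ependymal markers were negative in 5 of 6 cases in the HIP (median -0.42) and positive in 5 of 5 in the EC (median 0.45), where their sums were 5.48 to 11.5 CPM in wt and 8.11 to 16.2 CPM in Ts65Dn. Leaving out Ts65Dn replicate 3, the HIP medians were 0.53 for meningeal, 0.10 for choroid plexus, 0.03 for endothelial and -0.54 for ependymal markers. The EC median of ependymal markers was then 0.63, over 6 genes tested in place of 5. The part of these cells in the Vim values was not tested.

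Aldh1l1 and Aldoc overlapped between genotypes in both regions. Aldh1l1 ranged from 42.8 to 58.6 CPM in the Ts65Dn HIP (median 44.4) and from 56.1 to 97.8 CPM in the Ts65Dn EC (median 65.4), with log2 differences of -0.07 in the HIP (SE 0.08, edgeR adjusted p = 0.716) and -0.13 in the EC (SE 0.11, edgeR adjusted p = 0.571). Its highest value in either Ts65Dn group came from Ts65Dn replicate 3. Without that mouse the differences were -0.15 in the HIP (edgeR adjusted p = 0.193) and -0.26 in the EC (edgeR adjusted p = 0.0677). Aldoc ranged from 705 to 775 CPM in the Ts65Dn HIP (median 737) and from 770.4 to 1136 CPM in the Ts65Dn EC (median 961). It was above the wt median in all 6 Ts65Dn HIP libraries, with a log2 difference of 0.10 (SE 0.06, edgeR adjusted p = 0.483), and differed by -0.01 in the EC (SE 0.08, edgeR adjusted p = 0.959). The Aldoc values without Ts65Dn replicate 3 were 0.11 and -0.07 (edgeR adjusted p = 0.386 and 0.639). Without Ts65Dn replicate 3, edgeR called none of the 9 genes in the HIP (0) and Slc1a2 alone in the EC (1).

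**Figure D3:**
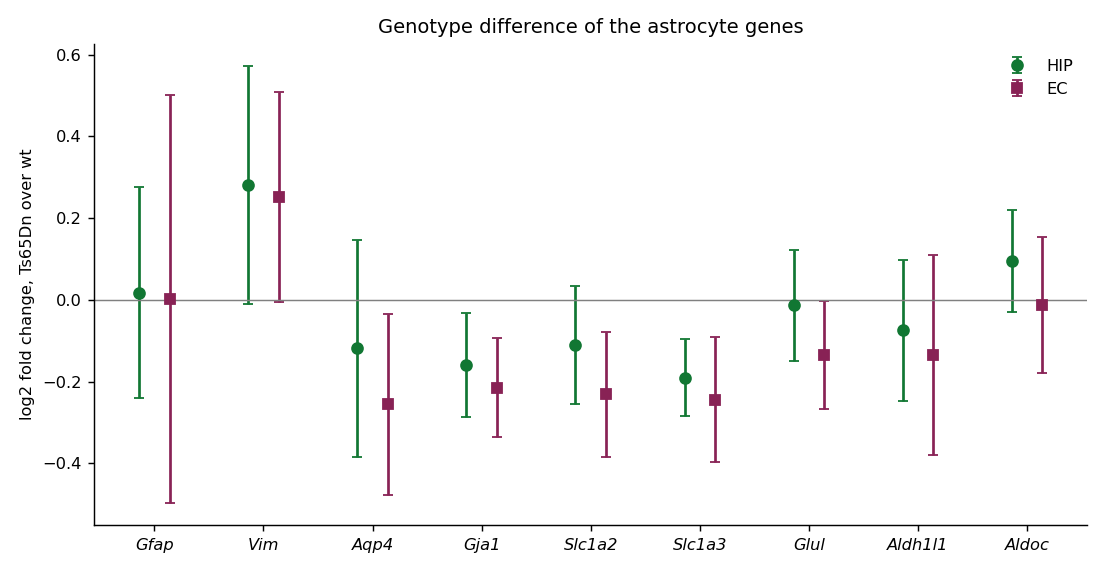
Log2 fold change of Ts65Dn over wt for the 9 genes in the HIP and the EC, with 95% intervals from the edgeR fit on 6 against 6 libraries. The intervals of Slc1a3 and Gja1 lie below 0 in both regions before any adjustment for multiple tests, while Gfap is centered near 0 with a wide interval in the EC.

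The difference between the regions in the effect of genotype was tested as an interaction. With all 6 Ts65Dn mice, 0 of 18109 genes were called by edgeR, by DESeq2 or by limma, and 4.10% had an unadjusted p under 0.05. None of the 9 genes had an unadjusted p under 0.05. Their interaction values lay between 0.01 (Vim, SE 0.16) and 0.14 (Aqp4, SE 0.13) on the log2 scale, where a positive value means that the HIP over EC ratio was larger in Ts65Dn. All 9 values were positive, and 0 of the 9 were called. Positive values were also found for 9 of 12 neuron markers and 8 of 9 endothelial and mural markers, so this direction was not particular to astrocyte genes. Of oligodendrocyte markers 3 of 9 were positive, and of ependymal markers 0 of 6. The share over all genes was not counted, and their median was -0.0004. Aqp4, Slc1a2, Slc1a3, Gja1, Glul and Aldh1l1 each had a more negative genotype difference in the EC than in the HIP. With 5 Ts65Dn mice, leaving out replicate 3, edgeR called 0 genes, and the values of the 9 genes lay between 0.03 (Vim) and 0.18 (Glul), with adjusted p from 0.762 to 0.984.

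Calls between genotypes among the pathway partners are given beside the share over all genes tested. In the 15 further lists, the 6 genes that stand in 2 lists were counted once. There edgeR called 1 of 186 tested for the HIP and 4 of 182 for the EC, against 1.04% and 2.50% of all genes. At an unadjusted p under 0.05 there were 35 and 32, against 14.8% and 19.0% of all genes. Among 33 other astrocyte genes, edgeR called 0 in the HIP (6 at an unadjusted p under 0.05, 2 called by DESeq2). In the EC it called 1 (6 at an unadjusted p under 0.05, 4 called by DESeq2: Cbs, Chrdl1, Dio2 and Lcat). The edgeR call was Dio2, which encodes the deiodinase that activates thyroid hormone, with means of 100 CPM in wt and 75.0 CPM in Ts65Dn (log2 -0.43, edgeR adjusted p = 0.0285). Dio2 kept its call in 7 of 12 fits that left out a mouse. In the HIP, the 2 of lowest p were Lcat (0.41, edgeR adjusted p = 0.0713) and Dio2 (-0.33, edgeR adjusted p = 0.111). Without Ts65Dn replicate 3, Lcat was called in the HIP (0.48, edgeR adjusted p = 0.00485), and Cbs, which makes cystathionine from homocysteine, was called beside Dio2 in the EC (-0.45, edgeR adjusted p = 0.00356).

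With edgeR and all mice, calls among reactive and metabolic genes were single. Of 30 reactive astrocyte genes tested, 0 were called by edgeR in the HIP (5 at an unadjusted p under 0.05, 0 by DESeq2). In the EC, edgeR called 1 (4 at an unadjusted p under 0.05, 1 by DESeq2). Serpina3n, a serine protease inhibitor gene, rose there from a mean of 11.8 CPM in wt to 16.5 CPM in Ts65Dn (log2 0.46, edgeR adjusted p = 0.0362), and kept its call in 3 of 12 fits that left out a mouse. Without Ts65Dn replicate 3, S1pr3, a sphingosine phosphate receptor gene, was also called in the EC (-0.46, edgeR adjusted p = 0.0177). Of 16 glycolysis and glycogen genes, edgeR called 0 in the HIP (8 at an unadjusted p under 0.05, 2 by DESeq2). In the EC it called 1 (6 at an unadjusted p under 0.05, 2 by DESeq2: Slc16a1 and Slc16a7, both lower). The edgeR call was Slc16a1, the lactate transporter gene, lower by -0.33 (edgeR adjusted p = 0.0448, called in 2 of 12 fits that left out a mouse). Among microglia markers P2ry12 was lower in both regions (-0.27, edgeR adjusted p = 0.0422, and -0.45, edgeR adjusted p = 0.0226). Leaving out a mouse, P2ry12 kept its call in 4 of 12 fits for the HIP (adjusted p up to 0.108) and 9 of 12 for the EC (adjusted p up to 0.0606). Of the ependymal markers, 0 were called in either region with all mice (0 in the HIP and 1 in the EC at an unadjusted p under 0.05, 0 by DESeq2). In the EC, 5 were tested with all mice and 6 without Ts65Dn replicate 3, where 2 were called higher, Ccdc153 and Tmem212. Tmem212 did not pass the filter on low counts with all mice, so its call has no counterpart there. Ccdc153 had an edgeR adjusted p of 0.117 with all mice.

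No gene of the remaining astrocyte lists was called by edgeR in either region. Glutamate and glutamine handling had 5 of 14 at an unadjusted p under 0.05 for the HIP and 1 for the EC, and DESeq2 called 2 in the HIP (Pc and Slc38a3, higher) and 0 in the EC. Endfoot and gap junction partners had 2 of 13 in each region, and DESeq2 called Dmd in the HIP and Tjp1 in the EC, both lower. Intermediate filament partners had 2 of 5 for the HIP and 0 for the EC, and DESeq2 called 0. Regulators had 2 of 16 for the HIP and 3 for the EC, and DESeq2 called Lifr, lower in the EC.

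**Figure D4:**
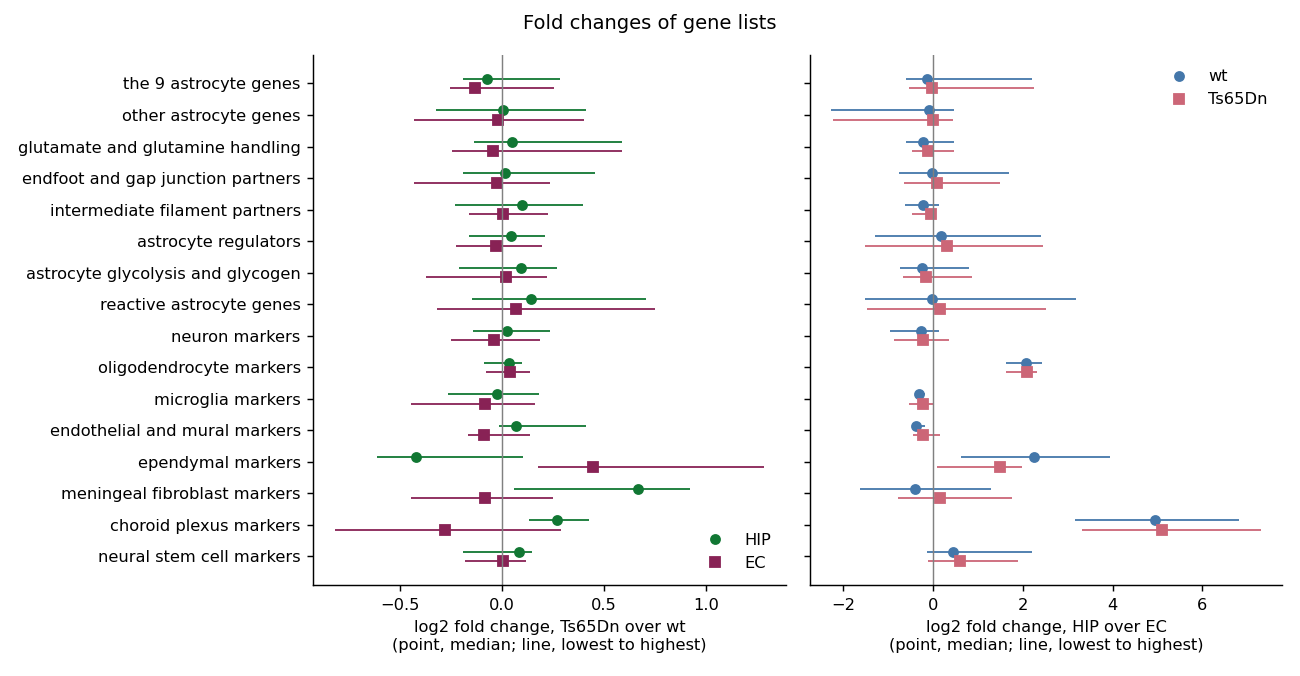
Median (points) and lowest to highest value (lines) of the log2 fold change in each gene list, for Ts65Dn over wt in the HIP and EC on the left and for HIP over EC in wt and Ts65Dn on the right. The astrocyte lists have genotype medians from -0.14 (the 9 genes in the EC) to 0.14 (reactive astrocyte genes in the HIP). Their region values go in both directions, while oligodendrocyte and choroid plexus markers lie wholly above 0 between the regions.

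Levels of the 9 genes varied to different degrees between mice of a group. The coefficient of variation ran from 3.72% to 11.3% for Slc1a3, from 4.31% to 11.8% for Slc1a2, from 5.67% to 9.05% for Glul and from 6.48% to 8.08% for Gja1 over the 4 groups. For Aldoc it ran from 4.13% to 12.2%. The upper end was larger for Aqp4 (9.76% to 19.8%), Vim (13.6% to 20.6%), Aldh1l1 (8.73% to 21.9%) and Gfap (13.7% to 39.1%). With Ts65Dn replicate 3 left out, Aldh1l1 ran from 2.00% to 9.16%, Aldoc to 9.45%, Aqp4 to 22.2%, Vim to 21.8% and Gfap to 44.1%. Gfap in the Ts65Dn EC, with values of 44.4 to 137 CPM, had the highest value.

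After removal of group means, the genes tended to vary together. Over the 24 libraries, 35 of 36 pairs had a positive Pearson r, from -0.08 (Aqp4 with Aldoc) to 0.79 (Aqp4 with Gja1), with a median of 0.40. These libraries share mice and dissections, so the values describe the data and carry no p. Aqp4 with Vim (0.73), Slc1a2 with Aldh1l1 (0.71), Gfap with Aqp4 (0.63) and Gfap with Vim (0.62) followed. Averaged per mouse, Aqp4 with Gja1 had r = 0.79 over 12 mice (permutation p = 0.0019, adjusted p = 0.0691 over 36 pairs) and Spearman's rho = 0.69 (permutation p = 0.016, adjusted p = 0.486). Without the 2 mice farthest from the median, r was 0.64. Over the 12 mice, 33 of 36 pairs had a positive r, with a median of 0.31, and none of the 36 passed the adjusted threshold. The share of positive pairs among other genes was not counted. Over the 22 libraries without Ts65Dn replicate 3, 35 of 36 pairs had a positive r (median 0.42), with 0.61 for Slc1a2 with Aldh1l1, and Aqp4 with Gja1 had r = 0.82 over 11 mice (permutation test, adjusted p = 0.0662), with 0 pairs past the threshold.

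**Figure D5:**
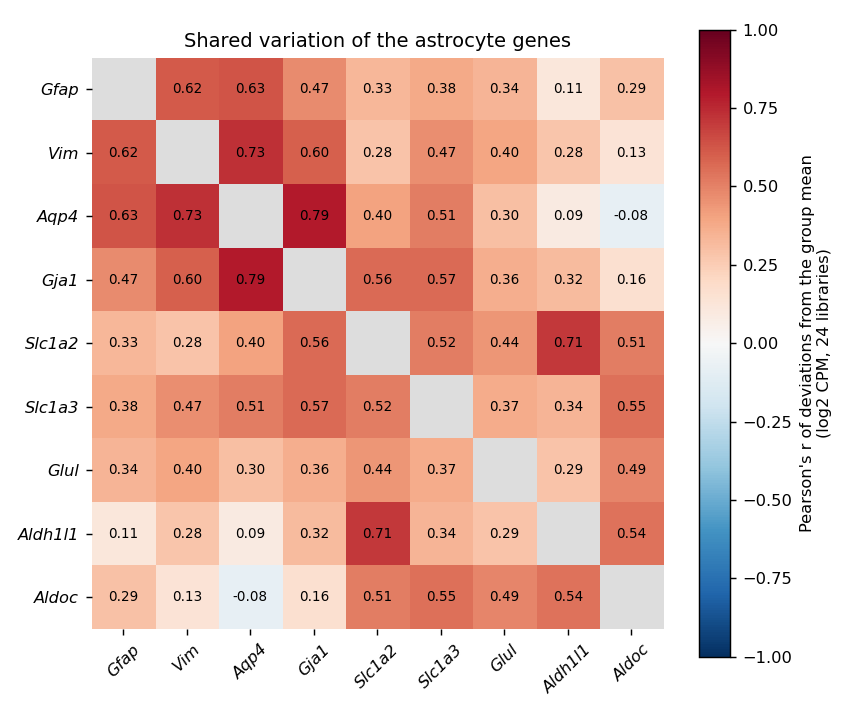
Pearson correlation of each pair of the 9 genes over 24 libraries, after the mean of each group was removed from log2 CPM (color from -1 to 1). The highest value is 0.79 for Aqp4 with Gja1 and the lowest is -0.08 for Aqp4 with Aldoc.

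The 5 genes most like the mean of the 9 genes over the 24 libraries, out of 16583, were Mlc1 (r = 0.89), Ifngr1 (0.83), Pcdhgc3 (0.82), Phka1 (0.81) and Lrp4 (0.81). Mlc1 encodes a membrane protein of astrocyte endfeet. Of the 33 other astrocyte genes, 45.5% had an r over 0.5 against 4.08% of all genes, with a median of 0.48 against -0.01. Mlc1 was also the first without Ts65Dn replicate 3 (r = 0.87), while Ifngr1 was at rank 8, Pcdhgc3 at 11, Lrp4 at 12 and Phka1 at 23, and 45.5% of the other astrocyte genes had an r over 0.5 against 5.78% of all genes. Across mice, the HIP and EC levels of a gene had no correlation that passed the adjusted threshold for any of the 9 genes. The highest values were for Aldh1l1 (r = 0.54, permutation p = 0.0797, rho = 0.06, permutation p = 0.854) and Gfap (r = 0.51, permutation p = 0.0887, rho = 0.43, permutation p = 0.169) over 12 mice. Adjusted p over the 9 genes was 0.399 for both values of r, and without the 2 farthest mice r was -0.15 for Aldh1l1 and 0.27 for Gfap. Over the 11 mice without Ts65Dn replicate 3, r was -0.34 for Aldh1l1 and 0.53 for Gfap.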

How the data were processed

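HIP and EC RNA-Seq libraries of 6 wt and 6 Ts65Dn mice (24 libraries) were analyzed. The authors aligned single-end reads of 50 bases to GRCm38 (Ensembl release 99) with Hisat2 and deposited raw counts per gene from HTSeq-count, without normalization. Their 4 deposited tables of comparisons hold DESeq2 and FCROS statistics and were not used. Of 55385 genes, 36766 had a count, and 99.6% matched GENCODE vM21 by identifier on the same build. Totals ranged from 23128589 to 40476492 counts.

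Counts were tested with edgeR 4.0.16 (R 4.3.3) by the quasi-likelihood test, after filterByExpr and TMM normalization, and were called at an adjusted p (Benjamini-Hochberg, over all genes tested) under 0.05. This gave 17355 genes in the HIP, 17049 in the EC and 18109 for the regions. Genotype was tested within a region on 6 against 6 libraries. Regions and the interaction were tested on all 24 libraries with a term for each mouse, since the labels give the mouse of each library. The HIP and EC deviations of a mouse correlated with r from 0.178 to 0.426. Levels are CPM on TMM-scaled libraries, and log2 CPM used a prior count of 2. Exact and permutation tests (100000 resamples for correlations) used scipy 1.17.1.

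The alternatives were DESeq2 1.42.0, limma 3.58.1 for the interaction, DESeq2 size factors in edgeR, no filter on low counts, a filter of 10 counts or more in every sample, a replicate block for genotype, removal of GC content and length, and leaving out each mouse. The methods were tested on simulated data. The lists and the spread and correlations without Ts65Dn replicate 3, the count of list genes taken once, and the Prox1 and Zbtb20 check were added after the data were seen.

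All 9 genes were named. From each other list, at most the 2 called genes of largest change in each direction, or the 2 of lowest p where none was called, could be named. Genes that DESeq2 or a fit without a mouse called, and the 5 genes most like the 9, were also named. The members and lists were chosen with earlier results of these data known. Promoter sequences are from RefSeq on GRCm38.p6.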

Additional observations from a re-analysis of the deposited data

Results flagged for a closer look

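In groups of 6 libraries, a highest or lowest value was singled out where its gap to the nearest of the others exceeded 0.625 of the range of the group (Dixon's test), which chance gives in about 1 in 20 groups. Over 36 groups of gene levels and 8 groups of ratios, 5 values stood out, each the highest of its group. Aqp4 was at 298 CPM in wt HIP replicate 4, where the other 5 libraries lay between 194 and 229 CPM. Aqp4 was at 291 CPM in Ts65Dn HIP replicate 2 (others 176 to 212), and the same library had the highest Glul, at 1677 CPM (others 1335 to 1432). Aldh1l1 was at 58.6 CPM in the HIP of Ts65Dn replicate 3 (others 42.8 to 45.1) and at 97.8 CPM in its EC (others 56.1 to 70.2), the mouse in which triplicated genes were at the wt level. What sets these libraries apart was not tested.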

How the results depend on the processing

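Between the regions, 5 of the 9 genes (Gfap, Vim, Slc1a2, Aldh1l1 and Aldoc) kept their calls in both genotypes under each alternative, and the changed calls of Aqp4, Gja1, Slc1a3 and Glul are given above. For genotype, 181 genes were called in the HIP and 426 for the EC. The counts were 662 and 1141 with DESeq2, which called 1 and 3 of the 9 genes, and 65 and 131 with GC content and length removed. With low counts left in, the EC comparison called 275 genes and the interaction 37. With a replicate block the counts were 29 and 36, and 0 of the 9 genes were called in either region. Animals of unlike genotype share only a number there (r from -0.224 to 0.167, with 1 of 6 best matching its own number in each region). Without 1 mouse at a time, the HIP count was lowest at 54 without Ts65Dn replicate 6 and highest at 318 without Ts65Dn replicate 3. The EC count was lowest at 90 without Ts65Dn replicate 1 and highest at 685 without Ts65Dn replicate 6. In these fits, 0 of the 9 genes were called in the HIP, and 0 or 1 for the EC.

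Values near 0 changed sign. Gfap in the HIP was -0.050 with GC content and length removed, and in the EC -0.0022 with 10 counts or more in every sample, -0.055 with the replicate block and -0.077 with GC content and length removed. Without 1 mouse at a time, the genotype differences ranged from -0.078 to 0.083 for Gfap in the HIP, -0.19 to 0.13 for Gfap in the EC, -0.057 to 0.019 for Glul in the HIP and -0.069 to 0.044 for Aldoc in the EC. The region difference of Glul in Ts65Dn ranged from -0.051 to 0.045. Interaction values ranged from -0.064 to 0.20 for Gfap, -0.011 to 0.085 for Slc1a3 and -0.071 to 0.14 for Vim. Genotype differences of log2 ratios ranged from -0.012 to 0.17 (HIP) and -0.039 to 0.26 (EC) for Gfap over Aldh1l1, and from -0.033 to 0.028 in the EC for Slc1a2 over Slc1a3. Over mice, r of Vim with Aldoc was -0.041 with DESeq2 size factors. Without Ts65Dn replicate 3, r was -0.12 for Vim with Aldoc, -0.18 for Aldh1l1 with Glul and -0.025 for Slc1a2 with Vim. The causes were not tested. With 6 mice a group, the intervals of the genotype folds, widest for Gfap in the EC, limit what could be seen.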
